A study of Mus musculus with 16 samples.

Results

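Interleukin 2 (IL-2), the related cytokine IL-15 and the chains of their receptors were followed in mouse CD8 T cells. The members were taken by gene symbol and not by a cut on their values, though with earlier results of these data known. They are the cytokine genes Il2 and Il15 and the receptor genes Il2ra, Il2rb, Il2rg and Il15ra. These 6 genes have 12 of the 41174 non-control probes of the array. All 12 probes were bright enough to test, and the 6 genes are among 18403 genes tested. The donors were female C57BL/6N mice aged 7 weeks. Their CD8+ Thy1.2+ cells had been sorted by flow cytometry into a CD44lo fraction (naive) and a CD44hi fraction (memory phenotype), and the labels name no transgene or deletion in any group. Both fractions were then cultured for 4 h. Resting cells had medium only, and stimulated cells had 500 ng/mL ionomycin, which raises calcium inside the cell, plus 10 ng/mL of the protein kinase C activator PMA. Sorting and culture were done on 4 separate occasions, which gives 4 groups of 4 arrays. The fractions are set apart by CD44 alone: the labels give no antigen history for the CD44hi cells, and a bulk array cannot tell fewer expressing cells from less RNA per cell.

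IL-2 is the growth factor that activated T cells make and answer to. Its receptor joins the alpha chain (CD25, gene Il2ra), which raises affinity and is made on activation, with the beta chain (CD122, Il2rb) and the common gamma chain (CD132, Il2rg), which carry the signal to the JAK kinases and STAT5. IL-15 uses the same beta and gamma chains. Its own alpha chain (Il15ra) mostly holds IL-15 on one cell and presents it to a neighbour, and IL-15 keeps memory CD8 T cells alive.

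The array reads each gene through probes of 60 bases, and the sequences below are those on which the differences between probes turn. Il2 has 2 probes on the minus strand of chromosome 3 of build mm7. Probe 1, printed on 10 spots, represents the gene, and probe 2 (chr3:36936615-36936674), shown here because both Il2 probes enter the results, lies nearer the start of the transcript.
Il2 probe 2: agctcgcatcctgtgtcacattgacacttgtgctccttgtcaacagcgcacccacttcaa
The 2 probes of Il15ra (chr2:11663284-11669785 for probe 1 and chr2:11662756-11669742 for probe 2, plus strand) share 17 bases, given in capitals, and so are no independent measurements of one another.
Il15ra probe 1: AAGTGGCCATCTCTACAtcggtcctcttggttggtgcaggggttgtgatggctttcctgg
Il15ra probe 2: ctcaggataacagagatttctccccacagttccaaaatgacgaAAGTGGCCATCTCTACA
Il15 is shown by the probe that disagreed with its partner, probe 2 (chr8:80892142-80892201, minus strand), whose description names the standard Il15 mRNA. Probe 1 (chr8:80900975-80901034) was designed on an mRNA described as a shorter isoform.
Il15 probe 2: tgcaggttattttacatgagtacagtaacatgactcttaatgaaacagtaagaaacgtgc
The 4 probes of Il2ra lie on the plus strand of chromosome 2, at chr2:11631963-11632024 (probe 1, whose description in the files names a 3′ untranslated region), chr2:11629934-11629993 (probe 2), chr2:11587391-11587450 (probe 3) and chr2:11631432-11631491 (probe 4). Il2rb has a probe on an unplaced piece of its chromosome (15_random, 1692977 to 1693036), and the probe of Il2rg (chrX:96593038-96593551, minus strand) spans 514 bases of genome. Exon and untranslated region annotation of build mm7 was not used here. In the RefSeq table of assembly GRCm38.p6, Il15ra is the next protein-coding gene after Il2ra on the plus side.

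Levels are log2 processed signal minus the 75th percentile of the array (an intensity of 504.3 to 678.0). A level of 0 therefore equals that percentile, and each unit is a doubling. Levels of different probes are not on a common scale and are compared only within a probe. A probe counts as well above background where the scanner software set that flag. Every group was hybridised on its own slide and scanned at its own time, so a slide effect and a group effect cannot be told apart. Of 10 CD8 T cell markers 9 were tested, and each was well above background in every group. Among 6 markers of CD4 or regulatory T cells Foxp3 was too dim to test, Cd40lg was above background on all stimulated and no resting arrays, and Cd4 was above background on every array at -4.73 to -3.80. Of the 5 tested, 3 were higher in memory than naive cells at rest and 2 after stimulation, and Ikzf2 and Ctla4 were above background on every array. Their summed level was 3.87 to 5.11 in memory and 2.77 to 3.71 in naive cells at rest, and 1.37 to 1.47 and 0.626 to 0.738 after stimulation. It was higher in memory cells in both conditions, as Il2 was, and its part in that was not tested. A sum over probes is led by its brightest, here Ikzf2 at rest (1.33 to 2.06) and Ctla4 in stimulated memory cells (-0.49 to -0.15). Cd4 itself was at -4.71 to -3.80 in naive and -4.27 to -4.08 in memory cells at rest. After stimulation Cd4 was at -4.43 to -4.25 in naive and -4.73 to -4.35 in memory cells. Of 7 NK or NKT cell markers tested, 6 were higher in memory than in naive cells at rest, and their summed linear level was 1.68 to 2.64 on naive resting and 19.6 to 21.7 on memory resting arrays. After stimulation it was 2.84 to 4.62 in naive and 31.9 to 54.5 in memory cells, and no naive array had Ncr1 well above background. The summed level of 5 B cell markers was 24.4 to 34.9 and 30.4 to 36.3 at rest, and 11.2 to 14.4 and 13.8 to 17.7 after stimulation, in naive and memory cells.

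Stimulation raised Il2, Il2ra and Il15ra in both cell types, and Il2rb and Il15 in naive cells. Memory cells had more Il2rb and Il15ra transcript than naive cells at rest. After stimulation Il2 was 3.80-fold higher in memory cells, and the other members did not differ between the cell types by the test. The statistics are from 1 limma fit to all 16 arrays, with two-sided p-values adjusted by the Benjamini-Hochberg method over all 18403 genes, a threshold of 0.05 and standard errors (SE) from the fit. In the naive response 5 of 6 members rose and none fell, where 68.8% of all genes changed, 36.7% rose and 32% fell. In the memory response 3 of 6 rose and none fell, where 70.8% of all genes changed, 30.1% rose and 40.8% fell. With so many genes changed, these counts say little of the members, and the sizes say more: the median change over the members was 3.0 in naive and 1.75 in memory cells, against 0.11 and -0.21 over all genes. Scaling to the array median in place of the 75th percentile turned the last value to 0.14 and called 5 members higher in memory cells. At rest 4 of 6 members were higher in memory cells and none was lower, where 21.3% of all genes differed and 13.9% were higher. That count was 2, namely Il2rb and Il15ra, with normexp background correction and in the authors' deposited table. Both of these draw dim levels together, as given below for Il2. After stimulation 1 of 6 was higher, where 24.1% of all genes differed and 9.86% were higher. The response differed between the cell types for 3 of 6 members, all smaller in memory cells (Il2rb, Il15 and Il15ra), and only Il15ra kept its call in every alternative. The count fell from 3 to 1 with median scaling, with no filter on dim probes, and without any 1 of 9 arrays (naive resting 2 or 3, memory resting 1 or 4, naive stimulated 2, 3 or 4, memory stimulated 1 or 2). Over all genes the response differed for 19.7%, with 5.61% larger and 14.1% smaller in memory cells. Across both factors, 3 of 6 members were higher and none lower in stimulated naive than resting memory cells, where 64% of all genes differed, 30.8% higher and 33.2% lower. Stimulated memory exceeded resting naive cells in 4 of 6 members, with none lower, where 67.4% differed, 32.5% higher and 34.9% lower.

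**Figure D1:**
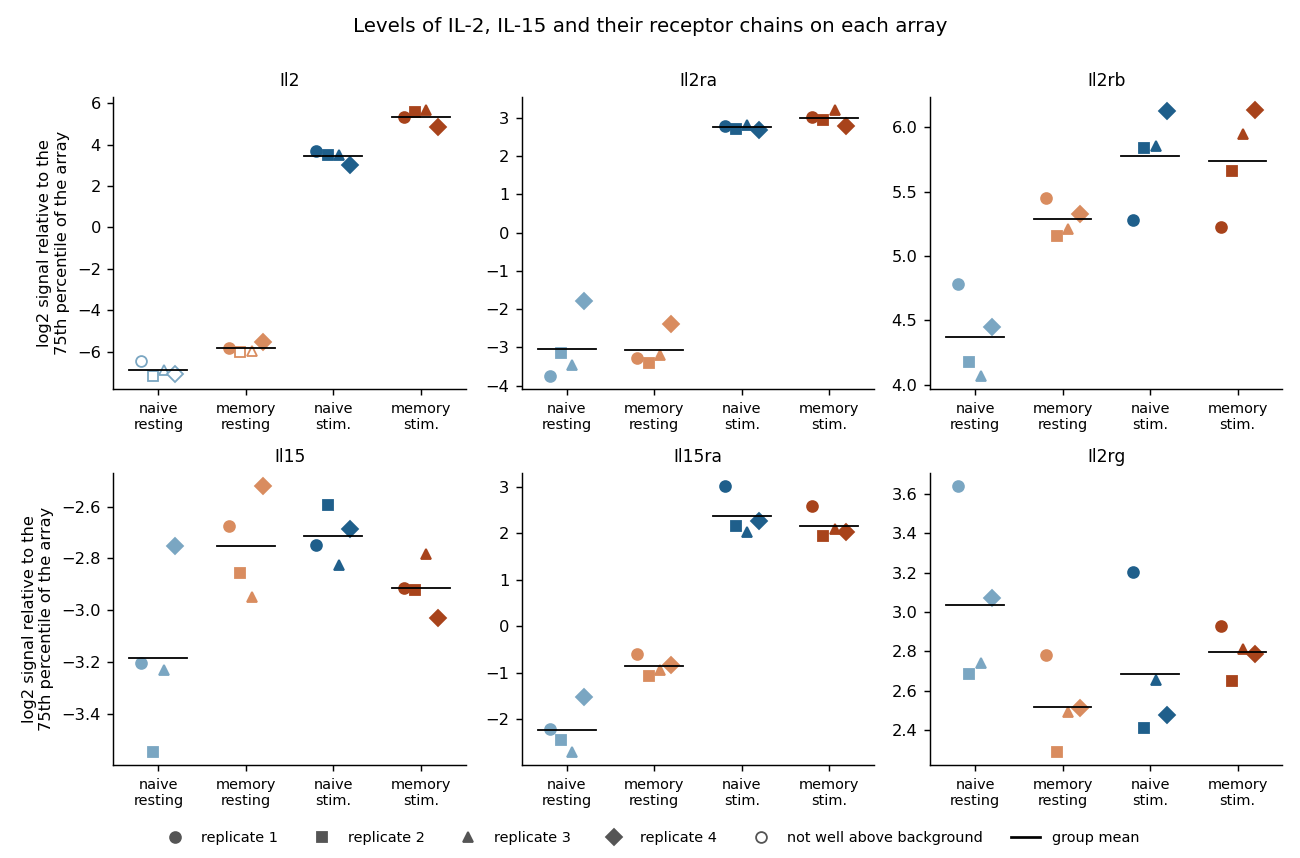
Level of each member on every array (vertical axis, log2 signal minus the 75th percentile, with a scale for each panel) in the 4 groups, on the probe that represents the gene; open symbols are arrays where it was not well above background and bars are group means. Il2, Il2ra and Il15ra separate resting from stimulated arrays, Il2rb and Il15ra also separate naive from memory at rest, and Il2rg ranges from 2.29 to 3.64 with overlapping groups.

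Il2, the cytokine itself, was at or near background at rest and rose in both cell types on stimulation. Its level on probe 1 was -6.45, -7.18, -6.88 and -7.05 on naive resting arrays 1 to 4, none of them well above background, and -5.81, -6.01, -5.97 and -5.53 on memory resting arrays, of which numbers 1 and 4 were. On stimulated arrays it was 3.69, 3.52, 3.50 and 3.02 in naive and 5.32, 5.60, 5.66 and 4.84 in memory cells. The 4 groups did not overlap, and naive cells were below memory cells in each condition. Stimulated naive cells had at least 550-fold more signal than resting ones (log2 change 10.32 ± 0.21 SE; adjusted p = 1.17e-14). This bound sets the mean of the bright group against each dim array's floor, which is either the dimmest probe well above background or Il2 itself if that is brighter. In memory cells the change was 11.19 ± 0.21 (adjusted p = 1.19e-14), from a resting level above background on 2 of 4 arrays.

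The 10 replicate spots of probe 1 gave a view of its technical error. Within an array their SD was 0.25 to 0.60 at rest and 0.021 to 0.052 after stimulation, which covers error within a hybridisation only. Between the 4 arrays of a stimulated group the SD was 0.29 in naive and 0.37 in memory cells. Stimulated memory cells exceeded stimulated naive cells by 1.93 ± 0.21 (adjusted p = 9.13e-06), and the lowest memory array (4.84) lay above the highest naive array (3.69). Probe 2, nearer the start of the transcript, gave the same order. It was at 1.49, 0.69, 0.99 and 0.15 in stimulated naive and 3.26, 3.17, 3.78 and 2.35 in stimulated memory cells, a difference of 2.31 ± 0.31 (adjusted p = 9.94e-05). On that probe stimulated naive cells were at least 90.7-fold above resting ones, and the memory response was 8.58 ± 0.31, with 3 of 4 resting arrays above background. The replicates numbered 4 were the lowest of their stimulated group on both probes in both cell types.

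At rest the log2 difference of memory over naive cells was 1.06 ± 0.21 on probe 1 (adjusted p = 0.00177) and 0.98 ± 0.31 on probe 2 (adjusted p = 0.0416). No fold is given for probe 1, since the memory mean did not exceed the floor used for the naive arrays. Probe 2 allows at least 1.18-fold. The difference was 0.01 with normexp background correction (adjusted p = 0.989) and 0.07 in the authors' deposited table (adjusted p = 0.803). The normexp run added an offset of 50 to every intensity, and the deposited table holds no value below 30. Both draw dim levels together, so neither run can decide on a difference this near the background. The gain on stimulation was larger in memory cells by 0.86 ± 0.29, which did not pass the test (adjusted p = 0.0504), and by 1.33 ± 0.44 on probe 2 (adjusted p = 0.054). It passed without replicate 4 of memory stimulated or of memory resting cells (1.03 and 0.96), without replicate 2 of naive resting cells (0.96) and without replicate 1 of naive stimulated cells (0.95; adjusted p = 0.0155 to 0.0433 over these 4). It passed also with quantile normalization (1.07, adjusted p = 0.00705), with scaling to the median (1.21, adjusted p = 0.00424), with normexp (1.90, adjusted p = 2.51e-05) and in the authors' deposited table (1.72, adjusted p = 4.28e-05). In the last 2 runs the resting levels were drawn together, so the gain there largely repeats the stimulated difference. It passed as well with the filter at 4 of 4 arrays (adjusted p = 0.0488) and without both resting arrays numbered 4 (1.01, adjusted p = 0.0387). The replicate block, described in the last paragraph, called it too. The resting levels in this difference lie at or near the background, so its size is uncertain.

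Il15, the cytokine that shares 2 receptor chains with IL-2, was read by probes that disagreed. Probe 2 was well above background on the memory resting arrays and on no other, at -4.06, -4.95, -4.68 and -4.94. Naive resting arrays were at -5.92, -6.97, -7.36 and -6.46, naive stimulated arrays between -7.94 and -7.71, and memory stimulated arrays at -5.92, -7.97, -7.74 and -7.81. The memory resting group overlapped no other. Resting memory cells were at least 2.02-fold above resting naive cells (log2 difference 2.02 ± 0.39; adjusted p = 0.00209 in the fit of all probes), and at least 1.88-fold above stimulated memory cells (2.70 ± 0.39; adjusted p = 1.78e-05). The background lies close below these levels, which limits both bounds. Probe 2 passed the filter only through the memory resting arrays, so the p-values above are not free of the choice of probe.

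Il15 probe 1, which is brighter and represents the gene, was above background on all 16 arrays and moved little. Its level was -3.20, -3.55, -3.23 and -2.75 in naive resting, -2.67, -2.86, -2.95 and -2.52 in memory resting, -2.75, -2.59, -2.82 and -2.69 in naive stimulated and -2.91, -2.92, -2.78 and -3.03 in memory stimulated cells, and every group overlapped its neighbours in level. The naive response was 0.47 ± 0.15 (adjusted p = 0.0105), which missed the threshold with normexp (0.27, adjusted p = 0.0509). The memory response was -0.16 ± 0.15 (adjusted p = 0.337), with a 95% interval of -0.48 to 0.15, so a fall of the size on probe 2 was not seen on probe 1. The resting difference of 0.43 ± 0.15 passed narrowly (adjusted p = 0.0493) and did not pass in the fit of all probes (0.0558), under any other scaling tried (0.18 to 0.27, adjusted p = 0.214 to 0.304), or without any 1 array other than naive resting replicate 4 and memory resting replicate 3 (0.31 to 0.47, adjusted p = 0.0554 to 0.167). The memory response minus the naive response was -0.63 ± 0.21 (adjusted p = 0.0453), and that call held in 6 of 25 alternatives. It was -0.38 to -0.27 under the other scalings, with normexp and in the authors' deposited table (adjusted p = 0.231 to 0.285). It was also lost with no filter (adjusted p = 0.0604), with every probe on its own (0.0538), and without any 1 array other than naive resting 4, memory resting 3 and memory stimulated 3 (adjusted p = 0.0545 to 0.0893). Markers of monocytes, macrophages and neutrophils, cells known to make IL-15, were also highest as a group sum in memory resting cells. Of 10 such genes 4 were higher in memory than naive cells at rest, against 13.9% of all genes. On stimulation 8 fell in each cell type, against 32% of all genes in naive and 40.8% in memory cells. The summed level of the 10 was 14.1 to 22.1 on memory resting, 8.36 to 14.2 on naive resting and 1.52 to 4.41 on stimulated arrays. Memory resting array 1 had the lowest sum of its group and the highest probe 2 level, but 4 arrays are too few to read a relation from their order. No naive resting array had probe 2 well above background, so its order there cannot be set against the sum. The part of such cells in the result was not tested.

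**Figure D2:**
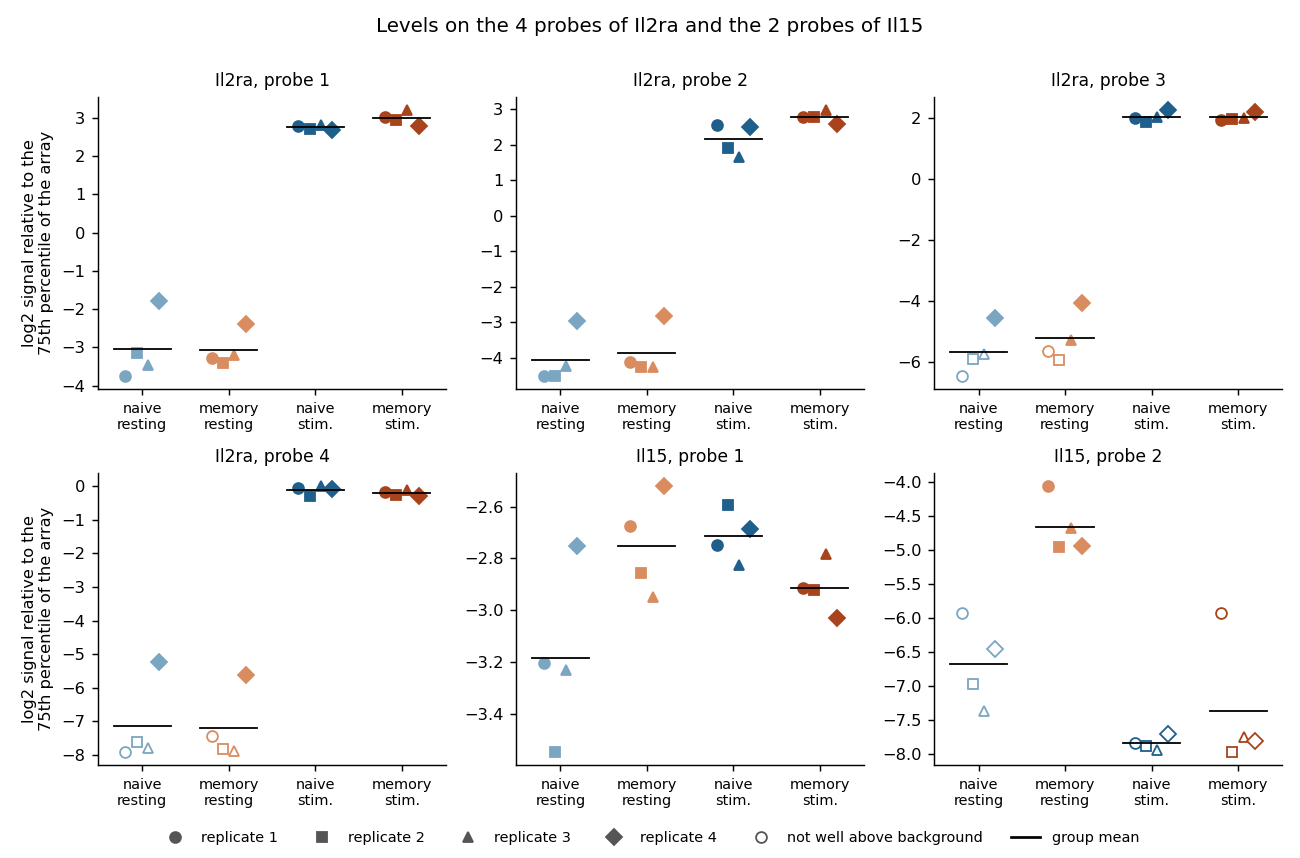
Level on every array for the 4 probes of Il2ra and the 2 probes of Il15 (log2 signal minus the 75th percentile, separate scales; open symbols are not well above background, bars are group means). On each Il2ra probe the replicates numbered 4 are the highest resting arrays in both cell types, and Il15 probe 2 is above background on the 4 memory resting arrays only.

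Il2ra, the inducible alpha chain of the IL-2 receptor, rose in both cell types. On probe 1 it was at -3.75, -3.15, -3.46 and -1.80 in naive resting and -3.28, -3.41, -3.20 and -2.40 in memory resting cells. After stimulation it was at 2.80, 2.71, 2.80 and 2.69 in naive and 3.02, 2.94, 3.20 and 2.78 in memory cells, clear of every resting array. The naive response was 5.79 ± 0.32 (55.3-fold; adjusted p = 4.06e-10) and the memory response 6.05 ± 0.32 (66.4-fold; adjusted p = 2.45e-10). Memory and naive cells did not differ by the test at rest (-0.03, 95% interval -0.72 to 0.66; adjusted p = 0.959) or after stimulation (0.23, -0.46 to 0.92; adjusted p = 0.642). The difference of the 2 responses was 0.27 with an interval of -0.71 to 1.24 (adjusted p = 0.735), so these arrays allow up to a little over a doubling in favour of memory cells.

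The other 3 probes rose as well, by 6.20 to 7.71 in naive and 6.65 to 7.26 in memory cells, in the fit of all probes. Probe 4 was above background on 1 of 4 resting arrays in each cell type and probe 3 on 1 naive and 2 memory arrays, so the changes on these probes lean on the background level. None of the 4 probes differed between the cell types by the test at rest or after stimulation. On probe 2 the stimulated groups did not overlap, at 1.67 to 2.56 in naive and 2.59 to 2.98 in memory cells (1.55-fold; adjusted p = 0.239). The resting arrays numbered 4 stood apart on every probe. On probe 1 the naive array was 1.35 above the next highest and the memory array 0.80 above it, on probe 2 the gaps were 1.27 and 1.32, on probe 3 1.16 and 1.20, and on probe 4 2.40 and 1.80. No such gap was seen on the stimulated arrays numbered 4, which lay between 0.42 below and 0.23 above the highest of the others. Among marker lists the summed level of 7 dendritic cell markers was also the highest of each resting group on those 2 arrays, at 8.49 in naive resting (others 1.88 to 2.64) and 9.70 in memory resting cells (others 5.21 to 6.82). Cd74, the invariant chain of MHC class II that B cells also carry, took the lead in that sum, at 2.78 in naive resting (others -0.61 to 0.70) and 2.47 in memory resting cells (others 0.26 to 1.07). The other 6 markers followed it in part. On naive resting array 4 Itgax was the highest of its group, at -1.04 (others -2.74 to -2.17). H2-Aa was the highest there too, at -3.78 (others -5.40 to -4.65), and so, narrowly, was H2-Ab1. Flt3, Xcr1 and Zbtb46 were not the highest on that array. On memory resting array 4 Flt3 was the highest of its group. Itgax was the lowest there, at 0.09 (others 0.49 to 0.66), and H2-Aa, H2-Ab1, Xcr1 and Zbtb46 were not the highest. The part of such cells in the Il2ra level was not tested. Without both arrays, a step chosen after seeing the data, the responses were 6.20 in naive and 6.28 in memory cells.

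Il2rb, the signalling beta chain shared by the IL-2 and IL-15 receptors, was higher in memory cells at rest and rose in naive cells on stimulation. Naive resting arrays were at 4.78, 4.17, 4.07 and 4.45 and memory resting arrays at 5.45, 5.16, 5.21 and 5.33, with no overlap. Naive stimulated arrays were at 5.28, 5.84, 5.85 and 6.13 and memory stimulated arrays at 5.22, 5.66, 5.95 and 6.13, which overlapped fully. Resting memory cells exceeded resting naive cells by 0.92 ± 0.21 (1.89-fold; adjusted p = 0.00641). Naive cells gained 1.41 ± 0.21 (2.66-fold; adjusted p = 2.78e-05). Memory cells gained 0.45 ± 0.21, which did not pass the test (adjusted p = 0.0698). After stimulation the difference was -0.04 with a 95% interval of -0.49 to 0.42 (adjusted p = 0.921). In order of level, naive resting was lowest, and memory resting, memory stimulated and naive stimulated cells followed with no neighbours among these 3 called different.

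The difference of the 2 Il2rb responses was -0.96 ± 0.30 (adjusted p = 0.0374). It kept its sign in all 25 alternatives (-1.16 to -0.61) and passed in 12. It did not pass with median scaling (-0.61, adjusted p = 0.0872), with no filter on dim probes (adjusted p = 0.0547), or without any 1 of naive resting replicates 2 or 3, memory resting replicates 1, 3 or 4, naive stimulated replicates 2, 3 or 4, or memory stimulated replicates 1 or 2 (-0.98 to -0.78, adjusted p = 0.0518 to 0.0785), nor without both resting arrays numbered 4 (-0.97, adjusted p = 0.0689). The memory response alone passed with median scaling (0.80, adjusted p = 0.00148) and without naive stimulated replicate 1 (0.45, adjusted p = 0.0476) or memory stimulated replicate 1 (0.63, adjusted p = 0.0144), and was -0.28 in the authors' deposited table. The naive response, the resting difference and the difference of the responses share the naive resting arrays and are not separate evidence. NK and NKT cells also carry much Il2rb. The summed level of their markers was higher in the memory than the naive fraction in both conditions, as given above. That marker list includes Eomes, itself known to drive Il2rb. The part of such cells in the resting difference was not tested.

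Il2rg, the common gamma chain that the receptors of IL-2, IL-4, IL-7, IL-9, IL-15 and IL-21 share, was above background on every array. Its level was 3.64, 2.69, 2.74 and 3.07 in naive resting, 2.78, 2.29, 2.49 and 2.51 in memory resting, 3.20, 2.41, 2.66 and 2.48 in naive stimulated and 2.93, 2.65, 2.81 and 2.79 in memory stimulated cells. All groups overlapped their neighbours in level, and the first replicate was the highest in each. Its changes did not pass the test: -0.35 in the naive response (95% interval -0.79 to 0.09; adjusted p = 0.149), 0.28 in the memory response (-0.17 to 0.72; adjusted p = 0.244), -0.52 at rest (-0.96 to -0.07; adjusted p = 0.0927) and 0.11 after stimulation (-0.33 to 0.55; adjusted p = 0.745). Under other scalings, and with the replicate block described in the last paragraph, it did pass in places. The naive response was -0.60 with quantile normalization (adjusted p = 0.0272), -0.67 in the authors' deposited table (adjusted p = 0.0129) and -0.52 without naive stimulated replicate 1 (adjusted p = 0.03). At rest the difference was -0.74 with median scaling (adjusted p = 0.0122) and -0.56 with normexp (adjusted p = 0.049). The memory response was 0.62 with median scaling (adjusted p = 0.0124). The sign of the memory response turned in some alternatives, with a range of -0.06 to 0.62. Under the scaling used for the main values, the 95% intervals hold each of these 4 changes to less than a doubling.

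Il15ra, the chain that binds and presents IL-15, was also higher in memory cells at rest, and rose in both cell types. Probe 1 was at -2.22, -2.45, -2.71 and -1.53 in naive resting and -0.59, -1.08, -0.94 and -0.84 in memory resting cells, with no overlap. It was at 3.02, 2.17, 2.02 and 2.26 in naive stimulated and 2.60, 1.95, 2.10 and 2.03 in memory stimulated cells, with overlap. Resting memory cells exceeded resting naive cells by 1.36 ± 0.25 (2.57-fold; adjusted p = 0.00129). Naive cells gained 4.60 ± 0.25 (24.2-fold; adjusted p = 3.55e-10) and memory cells 3.04 ± 0.25 (8.20-fold; adjusted p = 3.77e-08). The difference of the 2 responses was -1.56 ± 0.36 (adjusted p = 0.00653), and it passed in all 25 alternatives (-1.79 to -1.05). After stimulation the 2 cell types differed by -0.20, with an interval of -0.74 to 0.34 (adjusted p = 0.614). Probe 2 gave 4.78, 3.07, 1.58 and -0.13 for the naive response, the memory response, the resting difference and the stimulated difference, with an interaction of -1.70 ± 0.41 (adjusted p = 0.00995). Its neighbour on chromosome 2, Il2ra, did not differ between the cell types at rest, as given above.

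**Figure D3:**
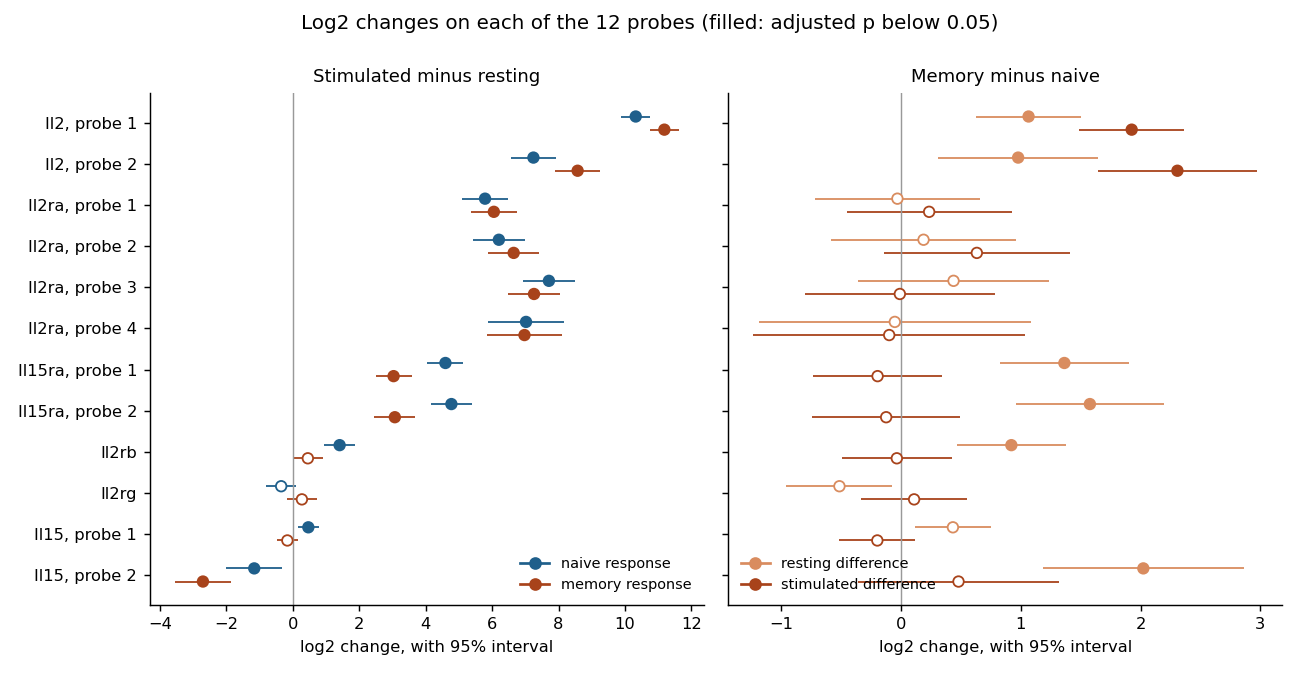
Log2 change with its 95% interval on each of the 12 probes, for stimulated minus resting cells (left) and memory minus naive cells (right), from the fit of all probes; filled points have an adjusted p below 0.05. The probes of Il2, Il2ra and Il15ra lie far to the right in both responses, Il15ra and Il2rb lie right of 0 at rest and on 0 after stimulation, and the 2 Il15 probes part; the naive change on Il15 probe 2 joins 2 groups that were both not well above background.

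The promoters of the members with the largest gains are given because both rose in both cell types. RefSeq sequence of GRCm38.p6 was at hand for Il2, Il2ra, Il2rg and Il15ra, and not for Il2rb and Il15. Shown are the 250 bases before the annotated start, 5′ to 3′ on the gene's strand, with matches to GGAAA, the core that NFAT factors bind, in capitals (TTTCC on the other strand). The Il2 window is chr3:37125955-37126204, minus strand, and the Il2ra window chr2:11642542-11642791, plus strand.
Il2 promoter: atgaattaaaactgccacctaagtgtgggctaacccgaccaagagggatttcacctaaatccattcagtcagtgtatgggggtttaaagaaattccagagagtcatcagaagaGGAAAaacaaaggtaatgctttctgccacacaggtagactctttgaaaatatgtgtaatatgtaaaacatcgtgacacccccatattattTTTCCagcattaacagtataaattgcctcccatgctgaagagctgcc
Il2ra promoter: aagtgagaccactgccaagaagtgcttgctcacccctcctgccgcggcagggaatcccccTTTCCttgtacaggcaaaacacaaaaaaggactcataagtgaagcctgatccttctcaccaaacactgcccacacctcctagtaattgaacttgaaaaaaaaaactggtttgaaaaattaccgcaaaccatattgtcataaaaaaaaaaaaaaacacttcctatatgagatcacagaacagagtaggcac
The Il2 window holds 2 matches, 137 and 47 bases before the start, and the Il2ra window 1, at 190 bases. Of 32851 promoter windows of this length 55.6% hold at least 1 match and 21.4% at least 2, so these counts are ordinary. The Il2ra window also holds 1 match to the NF-kappaB pattern searched, 201 bases before the start, as do 4.11% of all windows, and the match does not overlap the GGAAA core. Neither window holds TGANTCA (AP-1; in 6.75% of windows) or TTCNNNGAA (a STAT pattern; in 7.02%). Of the 2 annotated Il15ra starts, the window of the upstream start holds 4 GGAAA cores and that of the other 1 TGANTCA, and the Il2rg window holds 1 GGAAA core. Both strands were searched. A match describes letters in these windows only.

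Genes with the pattern nearest to each member over the 16 arrays were found by the root mean square difference of levels, each gene centred on its own mean. Nearest to Il2 were the cytokine and chemokine genes Ifng (1.38 log2 units), Xcl1 (1.39) and Il3 (1.45), then Sema7a (1.52) and Tnfsf14 (1.66), all of them far by this measure. Ifng had the group order of Il2, at -2.16 ± 0.37 (SD, n = 4), 0.51 ± 0.17 in resting naive and memory cells, and 6.47 ± 0.24 and 8.46 ± 0.12 in stimulated naive and memory cells. Nearest to Il2ra were Shmt1 (0.41), an enzyme of one-carbon metabolism, the MAP kinase phosphatase Dusp4 (0.43), Ncs1 (0.48), Hpdl (0.48) and Mfsd2a (0.50). Nearest to Il15ra was Bcl2a1b (0.38), an anti-apoptotic BCL-2 relative with near-identical copies that probes can confuse, followed by Ppp1r3e (0.41), Map2k3 (0.43), Bcl2a1c (0.44) and 3110082I17Rik (0.46). Bcl2a1b was at 2.14 ± 0.36, 3.53 ± 0.23, 6.41 ± 0.07 and 6.89 ± 0.06 in the same order of groups. Il2rb had Olfr1342 (0.20), the transferrin gene Trf (0.21), Scpep1 (0.21), Slc37a2 (0.25) and Nsg1 (0.25) nearest. Il2rg had Camk4 (0.17), the T cell receptor zeta chain Cd247 (0.18), Pde6g (0.18), Apbb3 (0.19) and Ppme1 (0.19), and Il15 had Homer3 (0.12), Dchs1 (0.12), Chadl (0.13) and 2 transcripts without a symbol. A member that varies little lies near many genes by this measure.

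The 4 lists of genes around the IL-2 system place the members in their pathway, as described by counts and medians without a test of the lists. For all of them the share over all genes was 36.7% higher and 32% lower for stimulated against resting naive cells, 30.1% and 40.8% for the same in memory cells, 13.9% and 7.47% in memory against naive cells at rest, and 9.86% and 14.2% after stimulation. The first holds the other cytokines and receptors of the gamma chain family, with 6 of 8 tested. In naive cells 3 rose and 1 fell, with a median of 0.36, and in memory cells 4 rose and 2 fell, with a median of 2.42. Il7r, the receptor chain for the survival cytokine IL-7, fell from 5.80 ± 0.23 to 0.11 ± 0.46 in naive and from 5.65 ± 0.27 to 0.29 ± 0.41 in memory cells (-5.70 and -5.36; adjusted p = 1.75e-11 and 3.26e-11). Il21, a helper cytokine, was well above background only in stimulated memory cells, at -2.72 ± 0.08, where it was at least 8.45-fold above memory resting and at least 7.35-fold above naive stimulated cells (adjusted p = 1.19e-14 and 5.4e-14). Il21 passed the filter only through those cells, so its p-values are not free of that choice. Il4 was not above background in naive resting cells. It was at -4.19 ± 0.31 in memory resting, -4.02 ± 0.57 in naive stimulated and -0.49 ± 0.31 in memory stimulated cells, 11.6-fold apart after stimulation (adjusted p = 2.74e-06). Resting memory cells were at least 2.80-fold above naive cells in Il4 (adjusted p = 9.36e-05; 0.0592 with normexp). Il9 rose in both cell types, above background on 3 of 4 stimulated arrays each, by at least 1.25-fold in naive and 3.68-fold in memory cells (adjusted p = 0.00176 and 3.06e-05). The naive rise of Il9 did not pass with normexp (adjusted p = 0.0634) or in the authors' deposited table (0.138). Il21r, the receptor chain for IL-21, was lower in memory than naive cells at rest by 0.69 (adjusted p = 0.0106) and rose by 0.82 and 1.14 on stimulation.

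The second list holds 14 transducers of the IL-2 receptor signal, of which 13 were tested. More fell than rose on stimulation, 7 against 3 in each cell type, with medians of -0.70 and -0.74 against 0.11 and -0.21 over all genes. Pik3cd, the PI3 kinase catalytic subunit of leukocytes, fell from 5.73 ± 0.10 to 3.51 ± 0.26 in naive and from 5.83 ± 0.11 to 2.25 ± 0.27 in memory cells (-2.22 and -3.58). On the probe that represents it, the larger fall in memory cells was called (-1.36 ± 0.21; adjusted p = 0.000333). On its second probe the changes were closer, at -2.71 in naive and -3.34 in memory cells. The stimulated difference was -1.27 on the first probe and -0.58 on the second, where it was not called. Jak3, the kinase bound to the gamma chain, fell by 1.71 and 1.08 and was 1.01 higher in stimulated memory than stimulated naive cells (adjusted p = 0.0209), and its second probe missed the threshold in memory cells. Stat5a, a STAT5 factor, rose by 1.51 and 2.29 (adjusted p = 7.45e-05 and 9.12e-07), and Pik3r1, the PI3 kinase regulatory subunit, fell by 1.22 and 1.90. At rest 1 was higher and 2 were lower in memory cells. Syk, a kinase more typical of B and myeloid cells, was higher by 1.66 at rest (log2) and 2.83-fold after stimulation (adjusted p = 0.0138 and 0.0213), with 2 of 4 naive stimulated arrays above background. The difference after stimulation did not pass with normexp (0.30, adjusted p = 0.128) or without memory stimulated replicate 1 (1.31, adjusted p = 0.0698), and the B cell and myeloid marker levels are given above, with their part not tested. Sos1 was 0.51 lower and Stat5b 0.51 lower (adjusted p = 0.03 and 0.0147), and other probes of both genes missed the threshold.

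The third list holds 18 genes known to answer to IL-2 or STAT5, all tested. In naive cells 11 rose and 2 fell and in memory cells 11 rose and 4 fell, with medians of 1.25 and 1.31. Among feedback and growth genes, Cish rose by 2.94 and 3.72, the anti-apoptotic Bcl2l1 by 4.42 and 4.32, and Myc by 4.68 and 5.97 (adjusted p of 5.53e-09 or less). Cish is outside the rule for named genes and was picked after its values were seen. Myc was at 2.92 ± 0.03 in naive and 1.56 ± 0.22 in memory cells at rest, 1.36 lower in memory cells, and at 7.60 ± 0.14 and 7.53 ± 0.09 after stimulation. Gzmb, a granzyme, was at -3.31 ± 0.51 in naive and 1.32 ± 0.96 in memory cells at rest, and at 2.64 ± 0.96 and 5.36 ± 1.15 after stimulation, with differences of 4.62 and 2.72 (adjusted p = 4.55e-05 and 0.00377). Ifng differed by 2.67 and 1.98 (adjusted p = 3.51e-08 and 1.19e-06). Eomes, the factor known to drive Il2rb, was 1.97 higher at rest (adjusted p = 1.07e-05), and Socs2, a feedback inhibitor, 1.43 higher at rest and 1.74 after stimulation (adjusted p = 0.00013 and 2.27e-05). In all, 6 of 18 were higher and 3 lower in memory cells at rest, and 7 and 1 after stimulation.

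The fourth list holds 25 regulators of Il2 transcription and of its mRNA, all tested. In naive cells 21 rose and 3 fell and in memory cells 19 rose and 4 fell, with medians of 0.93 and 1.04 against 0.11 and -0.21 over all genes. Fosl1, an AP-1 component, rose by 6.34 and 7.73 (adjusted p = 9.54e-11 and 1.26e-11), the latter from a resting level above background on 2 of 4 arrays. Rel, the NF-kappaB subunit that Il2 is known to need, rose from -4.96 ± 0.50 to 0.34 ± 0.25 in naive and from -3.54 ± 0.23 to -1.38 ± 0.50 in memory cells. It was 1.71 lower in stimulated memory than stimulated naive cells (adjusted p = 0.000232), where Il2 was higher. Fos was at 0.86 ± 0.21 in naive and -1.70 ± 0.27 in memory cells at rest and at 2.17 ± 0.33 and 2.05 ± 0.27 after stimulation, gaining 1.31 and 3.75. Nfkb1 rose by 2.92 and 2.40, Egr1 by 1.76 and 2.89, and Zfp36l1, which binds AU-rich elements and promotes mRNA decay, by 2.24 and 2.97. Nfkb1 has 4 probes, and on the others the order was reversed, with 3.50 to 3.67 in naive and 3.81 in memory cells. Among repressors of Il2, Prdm1 was higher in memory cells at rest and after stimulation by 1.68 and 1.63 (adjusted p = 0.000728 and 0.000908), and Bcl6, a transcriptional repressor, was 1.40 lower in stimulated memory cells (adjusted p = 0.00131). At rest 2 of 25 were higher and 10 lower in memory cells, with 16 lower under median scaling, which also took the count lower over all genes from 1375 to 4641, and after stimulation 1 was higher and 8 lower, with 5 lower under median scaling.

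**Figure D4:**
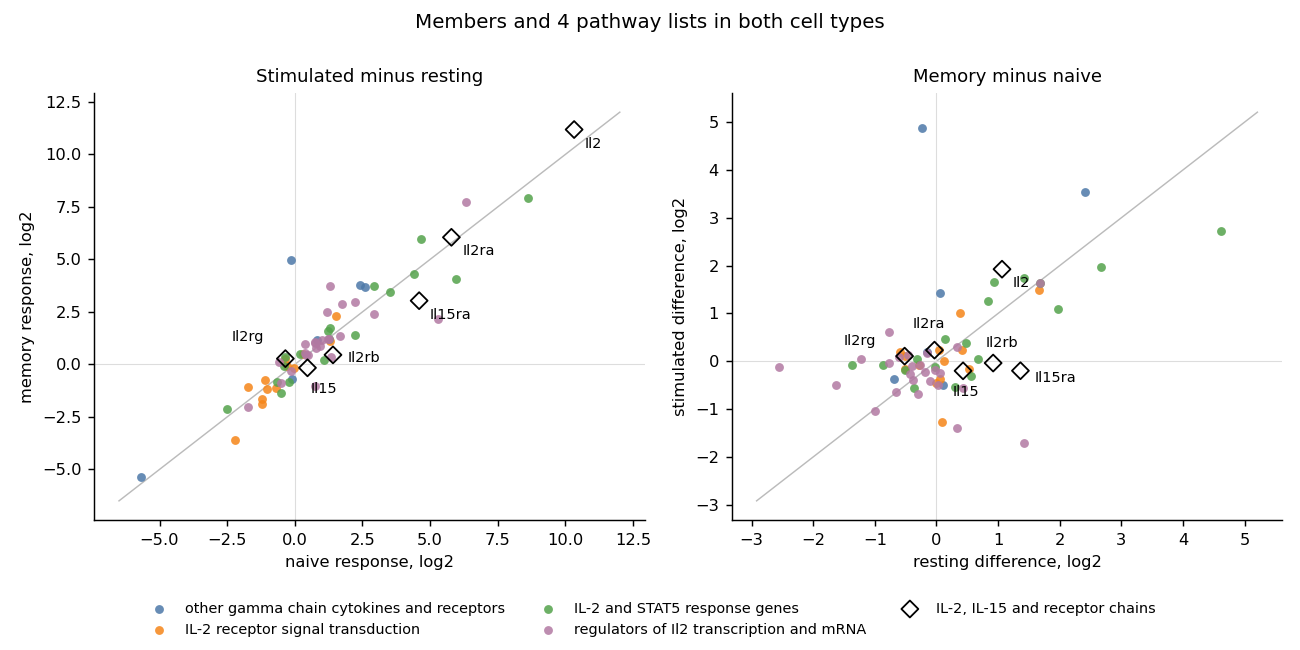
Log2 change of each tested gene of the 4 pathway lists (coloured points) and of the 6 members (open diamonds): the memory response against the naive response (left) and the stimulated against the resting difference of memory minus naive cells (right); grey diagonals mark equal values. Il2 and Il2ra lie near the left diagonal at 10.32 and 11.19 and at 5.79 and 6.05, Il15ra lies below it, and Il2 stands apart from the receptor chains in the right panel.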

How the data were processed

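RNA of 16 sorted and cultured CD8 T cell samples was amplified from oligo-dT primers and hybridised to 1-colour Agilent arrays, per the labels' protocols, so signal is tied to 3′ ends. The deposited values used are processed signal intensities, background-subtracted by Agilent Feature Extraction 9.5.3.1 per the file headers. Replicate spots were averaged, log2 taken and the 75th percentile of each array subtracted. The filter kept the 27349 probes that the scanner software called well above background on 3 or 4 of the 4 arrays in some group, and the brightest probe over all arrays stands for a gene. Between 59.3% and 66.5% of spots per array passed that call, and precision is limited by the array number.

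Group means were fitted with limma 3.58.1 in R 4.3.3 (lmFit, eBayes, Benjamini-Hochberg), checked on simulated data. A group without signal enters a fold as a bound, as the report defines. Alternatives were quantile normalization, median scaling, normexp, the authors' deposited table of linear intensity values (processing not given in the sources used here), other filters, every probe on its own, a replicate block, only the groups compared, and each array left out. A repaired normexp and the removal of both resting arrays numbered 4 were chosen after seeing the data. The normexp run added an offset of 50, and the lowest value of the deposited table was 30, so both shrink differences between dim levels. Named list genes are the 3 with the largest called changes per list and comparison. The members and lists were chosen with earlier results of these data known. Whether replicates differ by more than technical spread rests on the 4 separate sortings that the design text gives. The sequence and position of Il2 probe 1 are not reported here.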

Additional observations from a re-analysis of the deposited data

Results flagged for a closer look

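Among 48 groups of 4 arrays, 5 held 1 array far from the other 3, and chance gives about 1 in 20. On Il2ra probe 2 the memory resting replicate 4 was at -2.81 (others -4.26 to -4.13), on probe 3 the memory stimulated replicate 4 at 2.21 (1.95 to 1.99), and on probe 4 the naive resting replicate 4 at -5.22 (-7.91 to -7.61). On Il15 probe 2 the memory stimulated replicate 1 was at -5.92 (-7.97 to -7.74), and on Il15ra probe 2 the naive stimulated replicate 1 at 1.92 (0.85 to 0.91).

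Some responses differed between memory and naive cells by a test of the difference (memory minus naive, log2, limma). Among members these were Il2rb at -0.96, Il15 at -0.63 (adjusted p = 0.0453) and Il15ra at -1.56, with calls that held in 12, 6 and 25 of 25 alternatives. Among list genes the memory response was larger for Il21 by 5.11 (adjusted p = 4.66e-12), Fos by 2.44 (1.46e-05), Fosl1 by 1.40 (0.0357), Myc by 1.30 (5.18e-05), Egr1 by 1.13 (0.0042) and Zfp36l1 by 0.73 (0.0154). The difference was -3.13 for Rel (adjusted p = 2.96e-05), -1.74 for Bcl6 (0.00391) and -1.36 for Pik3cd (0.000333). On the second probe of Pik3cd the 2 responses were closer, at -2.71 in naive and -3.34 in memory cells. Fosl1 kept its call in 13 of 25 alternatives and lost it with no filter and without any 1 of 11 arrays (adjusted p = 0.0546 to 0.0746), from a memory resting level above background on 2 of 4 arrays. Il21 was at background in all groups but stimulated memory cells, so its value depends on the background level. It also passed the filter only through those cells.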

How the results depend on the processing

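Over 42 member changes and 1086 alternative values, 992 stayed on their side of the threshold, 56 lost and 38 gained a call, and none that was called turned its sign. Quantile normalization called 1 member lower in the naive response and 1 with a larger memory response. Median scaling called 5 members higher in the memory response, 1 lower at rest, and 2 with a larger and 1 with a smaller memory response. Over all genes it called 4641 lower at rest, 2924 higher after stimulation and 4858 with a larger memory response. Repaired normexp called 2 members higher and 1 lower at rest and 1 with a larger memory response, with 1663 genes higher at rest, 1623 lower after stimulation and 1376 with a smaller memory response. The authors' deposited table gave 1 member lower in the naive response, 2 higher at rest, 1 with a larger memory response and 1 lower in stimulated memory than resting naive cells, with 2206 genes lower at rest and 1681 with a larger memory response. With no filter 1 member had a smaller memory response, and with the 4 of 4 filter, or without both resting arrays numbered 4, 1 had a larger one. Counting every probe on its own gave 10245 higher in the naive and 8750 in the memory response, 9130 in stimulated naive against resting memory cells and 9178 in stimulated memory against resting naive cells. Leaving out each array gave 0 to 1 members lower in the naive response, 0 to 2 with a larger and 1 to 3 with a smaller memory response, and 851 to 1927 genes lower at rest against 1375, with 851 without memory resting replicate 1, 886 without naive resting replicate 2 and 901 without naive resting replicate 3. The cause was not tested in any of these cases. Plain normexp was not used, since its background could not be fitted on 3 arrays. Levels near background limit Il2 at rest and Il15 probe 2.

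The replicate block called 1 member, Il2rg, lower in the naive response (adjusted p = 0.0245) and 1, again Il2rg, lower at rest (0.00918). It called 2 members with a larger memory response, Il2 (0.0433) and Il2rg (0.0232), and gave 2412 genes lower at rest and 1698 with a larger memory response. Same-numbered arrays had correlations of -0.21 to 0.585 over 24 pairs, 16 of them over 0.1, with a median of 0.16 against -0.071 over the 72 other pairs, and 12 of 16 arrays lay closest to one of their own number. This is a hint from the data that the numbers mark shared occasions. The labels do not say so and not every pair was over 0.1, so the fit without the block gives the main values.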
